A study of Mus musculus with 12 samples.

Results

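Adrenal RNA pools with and without chronic aspartame were compared among mice that had all been exposed to the NMDA receptor antagonist CGP 39551. The comparison used 6 of the 12 arrays of the series, the 3 ASP+CGP arrays and the 3 CGP arrays. They were chosen by their labels and not by any measured value. Both groups were male C57Bl/6J mice aged 21 weeks, on standard chow. They had been exposed to CGP 39551 in prenatal and early postnatal life only, through dams given it in drinking water until weaning. Its dose of 5 mg/kg was set on the body weight of the dams. The ASP+CGP mice had in addition been exposed to aspartame from life in utero, at first through the mother. They then drank it at 46 mg/kg body weight until their adrenal glands were taken. The other arrays came from control mice given neither agent (CON, 3 arrays) and from mice given aspartame alone (ASP, 3 arrays). RNA from the mice of a group was combined into 1 pool that was hybridised to 3 arrays. The p-values below therefore describe how far repeat arrays of the same pool vary, and say nothing of how far mice vary. With 1 pool per group, an effect of treatment cannot be told apart from other differences between the pools.

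The adrenal gland has a cortex, where cells turn cholesterol into corticosterone and aldosterone, and a medulla of chromaffin cells, which make and store adrenaline and noradrenaline. Hepatocytes, the main cells of the liver, make most plasma proteins, bile acids and drug-metabolising enzymes, and their genes are bright on arrays of liver RNA. Immediate early genes encode transcription factors and signalling regulators that are switched on within minutes of a stimulus, among them the ACTH signal in the adrenal cortex.

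Values are log2 signals of 1 probe set per gene, over 15900 genes. A gene was called where limma's adjusted p was under 0.05 and the change was at least 1.4-fold. The tissue markers were at the top of the scale in both groups. Star, which carries cholesterol into mitochondria, had signals of 13.64, 13.59 and 13.55 in CGP and of 13.53, 13.55 and 13.50 in ASP+CGP. Th, the first enzyme of catecholamine synthesis, had 13.21, 13.31 and 13.25 in CGP and 13.31, 13.30 and 13.28 in ASP+CGP. Hepatocyte markers were bright as well, with Alb (albumin) at a mean of 13.64 in CGP. The ASP+CGP arrays stood apart in their spread of signal, with an interquartile range of 2.20 to 2.29 over all probe sets against 2.59 to 2.69 on the CGP arrays. Correlations between a CGP and an ASP+CGP array were 0.949 to 0.973, and those within the 2 groups were 0.989 to 0.993.

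Genes of the liver were much lower in ASP+CGP than in CGP. All 39 hepatocyte markers tested, of 45 listed, fell, by a median of 2.20 on the log2 scale (4.58-fold), whereas 11% of all genes were called lower and the median of all genes was -0.18. The changes of the markers ran from -3.21 (Cyp7a1) to -0.66 (Pck1). In ASP+CGP 2 of the 39 had a mean under 6, the floor used here, and for such genes the fold is only a lower bound. All 39 were also called lower after cyclic loess scaling, with a median of -1.95. Of 271 genes on 16 lists of liver functions, 197 fell and none rose. The other 1546 of the 1743 genes that fell were on none of these lists. These lists were written with earlier results of the same arrays known, and they share members.

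The sum of the 39 marker signals, in log2, was 16.68 to 16.73 on the CGP arrays and 14.98 to 15.08 on the ASP+CGP arrays. On the CON arrays it was 16.09 to 16.13 and on the ASP arrays 15.39 to 15.41, so that ASP+CGP was the lowest of the groups and CGP the highest. No marker had a mean under 6 in CGP. How far liver RNA in the adrenal pools was part of these differences was not tested, and in RNA from whole glands fewer cells of a type and less RNA per cell cannot be told apart. The sums for 22 genes of steroid synthesis were 16.68 to 16.73 in CGP and 16.62 to 16.66 in ASP+CGP, and those for 29 chromaffin genes were 16.12 to 16.15 and 16.07 to 16.14.

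Cyp7a1, which sets the pace of bile acid production, ended under the floor. Its signals were 9.02, 8.996 and 8.79 in CGP and 5.75, 5.71 and 5.72 in ASP+CGP, which is at least 7.66-fold lower with the ASP+CGP mean set to the floor (log2 difference -3.21 ± 0.07 SE, n = 3 arrays per pool, limma adjusted p = 4.7e-13). Tdo2, which opens the tryptophan ring in the kynurenine pathway, was at 9.96, 9.85 and 9.68 in CGP and at 6.64, 7.05 and 6.71 in ASP+CGP, an 8.15-fold fall. Over all genes tested, the arrays of the pools did not overlap for 52.1% that were lower and 23.1% that were higher in ASP+CGP, so that a lack of overlap was the usual case and the sizes below carry the comparison. Fabp1, the fatty acid binding protein of liver, had 10.78, 10.52 and 10.46 in CGP and 7.55, 7.82 and 7.83 in ASP+CGP, a 7.23-fold fall. Apob, the scaffold of lipoproteins, had 10.31, 10.37 and 10.31 against 7.67, 7.79 and 7.50, a 6.38-fold fall. G6pc, which releases free glucose, went from 10.52, 10.54 and 10.36 to 7.72, 7.83 and 7.63. Hrg, Aadac, Fbp1, Fgg, Apon, Ces3a and Nat8f2 completed the 12 largest falls in the fitted values, with log2 differences between -2.79 (Hrg) and -2.62 (Nat8f2). The ASP+CGP mean of Aadac was under the floor, so it was at least 6.21-fold lower.

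**Figure D1:**
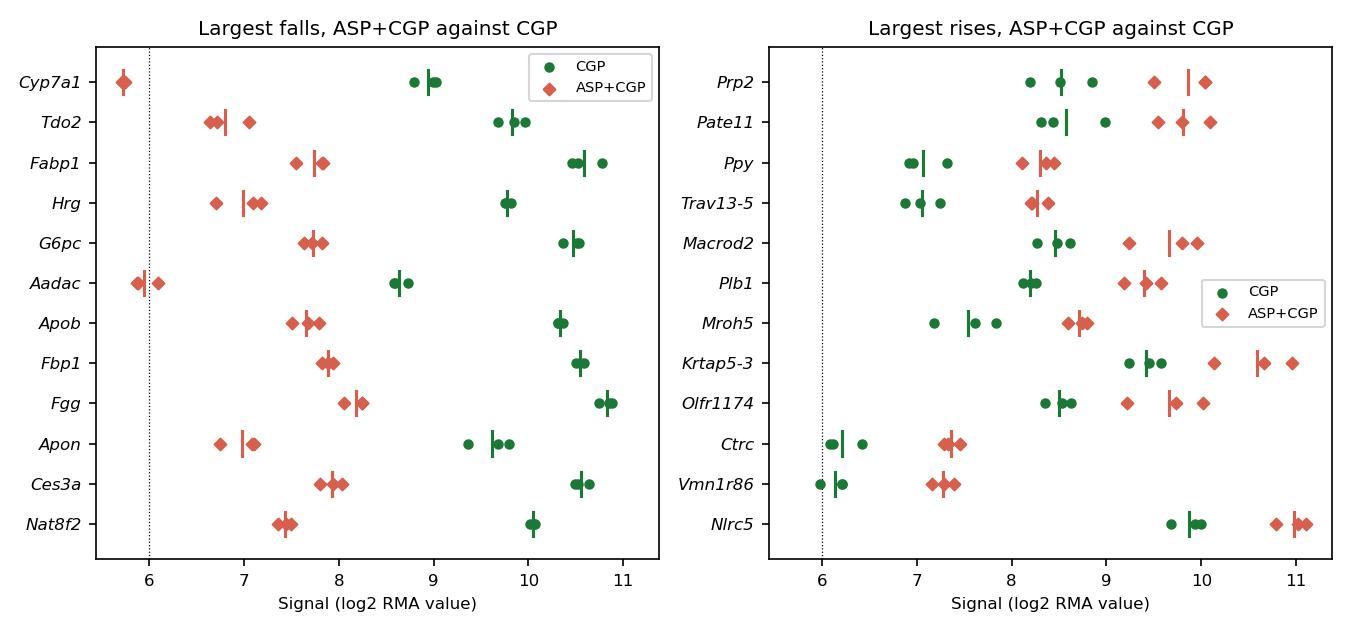
Signal (log2 RMA value, horizontal axis) of the 12 genes with the largest falls (left) and the 12 with the largest rises (right) in ASP+CGP against CGP; points are arrays, 3 per pool, vertical bars are means and the dotted line is the floor of 6. The pools do not overlap for any of these genes, which were chosen by this difference, and the falls are wider than the rises.

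The promoters of Fabp1 and Fgb are shown because, of the hepatocyte markers with a promoter in the table used, these had the largest falls among those that carry the letters GTTAAT within 150 bases before the start of transcription. GTTAAT is the core of the site bound by HNF1, a transcription factor of hepatocytes and kidney tubule cells. The letters (read on both strands, in the 250 bases before each start) were present in 10 of 37 promoters of the hepatocyte markers, which covered 33 of the 39 genes, and in 4.49% of 15760 promoters of all genes tested. The sequences are RefSeq's, on build GRCm38, 5′ to 3′ on the gene's strand, the last base lying just before the start, with the match in capitals. Fabp1 lies on the plus strand of chromosome 6 (chr6:71199729-71199878) and Fgb on the minus strand of chromosome 3 (chr3:83049864-83050013).
Fabp1: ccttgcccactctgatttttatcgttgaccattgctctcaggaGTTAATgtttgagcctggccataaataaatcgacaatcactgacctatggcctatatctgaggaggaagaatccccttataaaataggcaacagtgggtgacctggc
Fgb: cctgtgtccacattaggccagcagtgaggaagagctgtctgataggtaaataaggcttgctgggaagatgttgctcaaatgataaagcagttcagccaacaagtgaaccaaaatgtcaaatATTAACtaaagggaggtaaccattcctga
Fgb encodes the beta chain of fibrinogen and fell from 10.85, 10.81 and 10.78 to 8.29, 8.69 and 8.33. TATAAA, the TATA box, was in 12 of 37 promoters of the hepatocyte markers and in 7.74% of all promoters. GTTAAT and TATAAA matches overlapped in 2 of all promoters. A match is a description of the letters, and binding was not measured.

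Enzymes of drug metabolism fell in each family of the pathway. Of 27 cytochrome P450 enzymes of drug metabolism, 23 fell and none rose (median -1.93). Cyp1a2, which oxidises caffeine and other planar compounds, fell by 2.58 on the log2 scale, Cyp4a12b by 2.57 and Cyp3a25 by 2.55. Cyp1a1, the extrahepatic relative of Cyp1a2, differed by 0.41 and was not called. Of 22 conjugation enzymes 14 fell (median -1.24), with Nat8f2 at -2.62 and the glucuronosyltransferases Ugt2b1 at -2.60, Ugt2b34 at -2.55 and Ugt3a2 at -2.53. Members of these families have similar sequences, so that 1 probe set can take signal from several. The glutathione transferases Gstm1, Gstm2 and Gstp1 had differences of -0.13, -0.12 and -0.37 and were not called. Of 15 carboxylesterases and related hydrolases 12 fell (median -1.09), with Ces3a at -2.62 and Pon1, the paraoxonase carried on HDL, at -2.43. In ASP+CGP 6 of the 22 conjugation enzymes, 3 of the 15 carboxylesterases and related hydrolases and 1 of the 27 P450 enzymes had a mean under the floor. The log2 differences of such genes are not exact.

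Genes of secreted plasma proteins formed the second large set. Of 20 coagulation genes 18 fell (median -1.79), among them Hrg at -2.79, Fgg at -2.64, Kng1 at -2.45 and Plg at -2.36. F7 and F8, at -0.20 and -0.23, were not called. Of 17 genes of apolipoproteins and lipoprotein assembly 15 fell (median -1.63). The widely expressed Apoe fell by 0.51 on the log2 scale, and its call was lost after cyclic loess. Of 21 acute phase genes 17 fell (median -1.53), led by Mug1 at -2.35. Of 21 complement genes 14 fell (median -0.79), with C8g at -1.91 and C4bp at -1.87. The 3 genes of C1q, made by macrophages, were at -0.32, -0.11 and -0.11 and were not called.

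Bile acid, amino acid and sugar metabolism showed the same direction, and the counts stand beside 11% of all genes that fell. Of 26 genes of bile acid synthesis and transport 21 fell (median -1.18), including Cyp8b1, which sets the share of cholic acid, at -2.35, and Slc10a1, the bile salt importer, at -2.23. In ASP+CGP 5 of the 26 had a mean under the floor. The nuclear receptor Nr0b2, which represses Cyp7a1, differed by 0.09 and was not called. Of 15 genes of the urea and methionine cycles 14 fell (median -1.44), with Bhmt and Mat1a both at -2.33. Of 7 enzymes that break down phenylalanine and tyrosine 6 fell (median -1.14), led by Hgd at -2.41 and Hpd at -2.31. Of 11 genes of the tryptophan-kynurenine pathway 7 fell (median -0.85), with Kynu at -2.23 and Kmo at -1.90. In glucose and fructose metabolism 8 of 13 fell (median -0.66), and Pck2, the mitochondrial form of the enzyme encoded by Pck1, stood at 0.00. Among 21 targets of PPAR alpha in fat oxidation 8 fell (median -0.42), with Cyp4a14 at -2.17 and Cyp4a10 at -1.93, whereas Acot2 and Pdk4 were both at -0.03. Of 19 liver transcription factors 10 fell (median -0.59). Hnf4a, a nuclear receptor of hepatocytes, fell by 1.63 on the log2 scale, Nr1i3 by 1.23 and Prox1 by 0.89. Foxa1 at 0.26, Foxa2 at 0.17 and Gata4 at 0.40, factors shared with other organs, were not called.

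In iron handling 8 of 17 genes fell (median -0.47), beside 11% of all genes. The median CGP signal of this list was 9.94, and of all genes from 9 to 10, 598 of 2823 fell, with a median of -0.35. Hamp encodes hepcidin, the hormone that limits iron release from cells, and its paralogue Hamp2 lies next to it on chromosome 7. Hamp had signals of 11.10, 11.05 and 11.05 in CGP and of 8.77, 8.95 and 8.78 in ASP+CGP (-2.24 ± 0.07 SE, n = 3 arrays per pool, limma adjusted p = 4.2e-12). Hamp2 had 7.98, 7.58 and 7.88 against 7.86, 7.75 and 8.05 (0.07 ± 0.14 SE, n = 3 arrays per pool, limma adjusted p = 0.65). The Hamp arrays of the pools were apart, as for most genes, and those of Hamp2 overlapped. The 2 transcripts are alike, so the split of signal between their probe sets is uncertain. Hjv and Tfr2, which take part in iron sensing upstream of hepcidin, fell by 1.24 and 1.46 on the log2 scale. Fth1 and Ftl1, the ferritin chains of every cell, differed by 0.00 and -0.15 and were not called.

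The promoters of the pair are shown because they are close in sequence while the signals differed. Over 150 aligned bases around a shared STAT site (TTCTTGGAA, the letters bound by STAT3 after interleukin-6), 138 were identical (92%). Hamp also carries GGCGCC, the letters of the BMP response element, starting 12 bases before the STAT site. At the same place Hamp2 has the substitution G4A, counted from the first base of the element. Within the 250 bases searched on both strands, GGCGCC was in 15.1% of all promoters and TTCTTGGAA in 0.247%, and the 2 motifs overlapped in none. Both genes are on the minus strand of chromosome 7, Hamp at chr7:30944030-30944179 and Hamp2 at chr7:30924182-30924331, and both elements are in capitals where their letters are complete.
Hamp: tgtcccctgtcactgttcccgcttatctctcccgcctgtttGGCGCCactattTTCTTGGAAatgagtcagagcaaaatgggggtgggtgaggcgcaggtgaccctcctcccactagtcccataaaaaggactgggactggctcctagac
Hamp2: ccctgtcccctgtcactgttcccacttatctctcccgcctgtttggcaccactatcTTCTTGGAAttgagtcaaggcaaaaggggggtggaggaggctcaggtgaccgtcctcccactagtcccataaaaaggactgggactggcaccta
Counted from the start of transcription, the GGCGCC match of Hamp began at -109 and its STAT site at -97, and the STAT site of Hamp2 began at -94. No binding was measured at either promoter.

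Immediate early genes were lower as well. Of 42 such genes 25 fell and none rose, with a median of -0.59, beside 11% of all genes that fell. After cyclic loess 16 were called lower and 1 higher, with a median of -0.36, beside 5.18% of all genes called lower and 5.17% called higher. Gem, a small GTP-binding protein, had signals of 11.02, 11.09 and 11.02 in CGP and of 9.64, 9.70 and 9.57 in ASP+CGP, a 2.65-fold fall. Plk3, a stress-induced kinase, had 10.10, 10.18 and 10.16 against 8.73, 8.76 and 8.75. Atf3, a stress-induced transcription factor, went from 9.26, 9.25 and 9.39 to 8.14, 8.21 and 8.28. In all 3 genes the lowest CGP array was above the highest ASP+CGP array, as for 52.1% of all genes. Ier3, Ptgs2, Fosb and Junb fell by 1.397, 1.25, 1.23 and 1.18 on the log2 scale. Fos fell by 0.62 and Myc by 0.62, and both calls were lost after cyclic loess. Egr1 at -0.25, Egr3 at 0.00, Nr4a1 at -0.37 and Jun at -0.34 were not called.

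Of the immediate early genes with a promoter in the table, Plk3 and Atf3 had the largest falls among those that hold TGACGT, the core of the cyclic AMP response element, within 150 bases of the start. The letters were in 16 of 38 promoters of the list (31 of its 42 genes matched) and in 8.65% of all promoters, searched over 250 bases and both strands. Plk3 lies on the minus strand of chromosome 4 (chr4:117133964-117134113) and Atf3 on the minus strand of chromosome 1 (chr1:191183334-191183483), again on GRCm38 with the match in capitals.
Plk3: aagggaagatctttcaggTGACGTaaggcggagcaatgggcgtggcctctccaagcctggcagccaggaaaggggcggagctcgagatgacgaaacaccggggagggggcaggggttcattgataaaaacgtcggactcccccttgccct
Atf3: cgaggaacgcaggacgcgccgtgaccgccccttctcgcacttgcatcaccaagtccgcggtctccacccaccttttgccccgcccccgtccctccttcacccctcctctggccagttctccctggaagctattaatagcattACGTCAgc
Binding at these letters was not measured, and TGACGT matches overlapped with GTTAAT matches in 1 of all promoters. In the hepatocyte markers TGACGT was in 1 of 37 promoters.

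Clock, glucocorticoid-induced and cholesterol synthesis genes moved less. Their counts stand beside 11% of all genes that fell, and 5.18% after cyclic loess. Of all genes with a CGP signal from 9 to 10, 598 of 2823 fell, with a median of -0.35. The lists had median CGP signals of 9.06 (clock), 10.11 (glucocorticoid-induced) and 9.21 (cholesterol synthesis). Of 17 clock genes 7 fell (median -0.39), and after cyclic loess 3 did. Cry2, a repressor of the clock, fell by 0.97 and Nfil3 by 0.85 on the log2 scale, whereas Dbp at -0.29 and Nr1d1 at -0.24 were not called. Of 20 glucocorticoid-induced genes 5 fell and after cyclic loess 1 did, Tat, a tyrosine enzyme of liver, at -1.97. Fkbp5 at -0.26, Tsc22d3 at -0.31 and Sgk1 at -0.33 were not called. Of 20 genes of cholesterol synthesis 4 fell, led by Idi1 at -0.66, and after cyclic loess 1 did.

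Of 22 genes of steroid synthesis 2 fell and none rose, a share near the 11% of all genes that fell, with a median of -0.08. One was Cyp17a1, a 17-hydroxylase that is low in the adult mouse cortex, which had signals of 8.42, 8.23 and 8.28 in CGP and of 7.46, 7.65 and 7.25 in ASP+CGP (-0.86). The other was Sult2a8, a sulfotransferase of liver, which was under the floor in ASP+CGP. Cyp11a1, which makes pregnenolone, differed by 0.02, Cyp11b1, which makes corticosterone, by 0.04, and Cyp11b2, which makes aldosterone, by -0.01 (0.13 after cyclic loess, limma adjusted p = 0.046, under the 1.4-fold minimum). None of 29 chromaffin genes was called by limma, although 3 were higher and 14 lower at an unadjusted p under 0.05. After cyclic loess 2 of the 29 were called higher. Chga, a granule protein of chromaffin cells, differed by 0.07, Dbh by -0.02 (0.074 after cyclic loess) and Pnmt, which makes adrenaline, by -0.17. In the list of catecholamine synthesis and storage 2 of 14 fell, again near the share of all genes, Gch1 by 0.59 and Ddc by 0.49 on the log2 scale, and neither was called after cyclic loess.

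No ribosomal protein gene of 18, respiratory chain gene of 26 or housekeeping gene of 9 was called by limma, beside 19.5% of all genes. At an unadjusted p under 0.05, 10, 15 and 6 of them were lower and none was higher. The median CGP signals of these lists were 12.19, 11.23 and 11.48. Of all genes with a CGP signal from 11 to 12, 57 of 622 fell. Of 18 endothelial genes 3 fell (Ptprb, Pecam1 and Kdr), none of them after cyclic loess. This count and the next stand beside 11% of all genes that fell, and 5.18% after cyclic loess. The median CGP signal of the endothelial list was 9.76, and of all genes from 9 to 10, 598 of 2823 fell. Of 22 macrophage genes only Vsig4, of tissue macrophages, fell (at least 1.28-fold lower, its ASP+CGP mean being under the floor), and after cyclic loess 2 did. Fn1, a matrix and plasma protein, fell by 1.46 on the log2 scale, while Col1a1 at -0.08 and Col3a1 at 0.15 were not called.

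**Figure D2:**
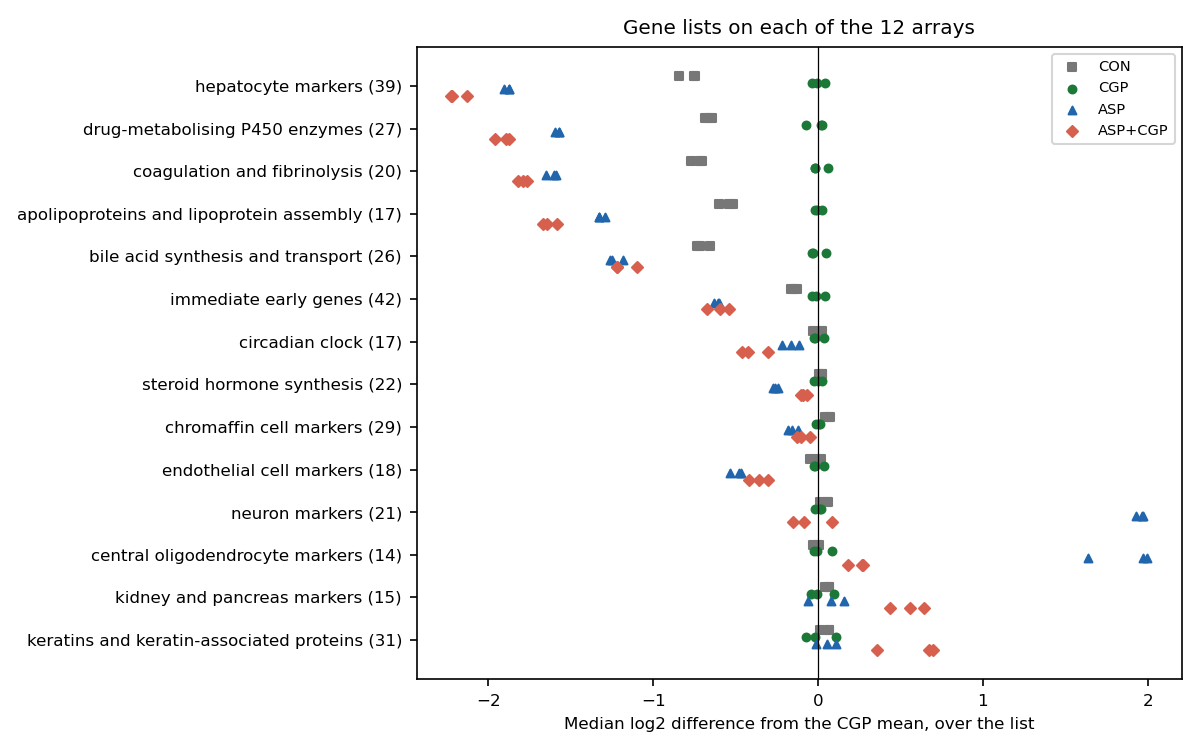
Median over the members of 14 gene lists of the log2 difference between each array and the mean of the CGP arrays (horizontal axis); the number of genes tested is in brackets and each point is 1 of the 12 arrays. The ASP+CGP arrays lie lowest for the hepatocyte, P450, coagulation and apolipoprotein lists and highest for keratins and for kidney and pancreas markers, and the ASP arrays alone are high for neuron and oligodendrocyte markers.

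The rises were smaller: 79 genes fell by over 4-fold (0.497%) and none rose by as much. Over 1.8-fold, 315 genes fell (1.98%) and 107 rose (0.673%), and 162 of the 315 were on none of the liver lists. Over the whole set 1363 genes rose (8.57%) and 1743 fell (11%). After centring each array on its median the split was 2015 higher (12.6%) and 982 lower (6.14%), and after cyclic loess, which moved the median of all genes from -0.18 to -0.02, it was 817 and 820. Of the genes called in the deposited values, cyclic loess kept 631 of the higher and 598 of the lower, and turned none.

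Prp2, a proline-rich protein of saliva, had the largest rise, with signals of 8.51, 8.19 and 8.85 in CGP and of 10.04, 9.50 and 10.04 in ASP+CGP (1.34 ± 0.19 SE, n = 3 arrays per pool, limma adjusted p = 3.9e-05). Ppy, pancreatic polypeptide, went from 6.96, 6.92 and 7.32 to 8.36, 8.10 and 8.44, a 2.36-fold rise. Plb1, a phospholipase of gut and skin, went from 8.26, 8.12 and 8.20 to 9.57, 9.19 and 9.42. In these 3 genes every ASP+CGP array was above every CGP array, as for 23.1% of all genes, and the errors of Prp2 and Ppy were wider than those of the large falls. Pate11, Trav13-5, Macrod2, Mroh5, Krtap5-3, Olfr1174, Ctrc, Vmn1r86 and Nlrc5 completed the 12 largest rises, between 1.24 (Pate11) and 1.10 (Nlrc5). The calls of Macrod2 and Nlrc5 were lost when the probe sets of a gene were averaged.

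Keratins and keratin-associated proteins, which build skin and hair, were the list with the most rises. Of 31 genes 20 rose, with a median of 0.59, and after cyclic loess 9 did, with a median of 0.35. Beside these counts, 8.57% of all genes rose, and 5.17% after cyclic loess. Krtap5-3 had signals of 9.44, 9.24 and 9.58 in CGP and of 10.95, 10.14 and 10.66 in ASP+CGP. Krtap10-10 rose by 1.04 and Krtap5-1 by 0.99 on the log2 scale. Krt18, a keratin of simple epithelia that hepatocytes also make, fell by 0.68. Of the 31 genes 9 had a mean under 6 in CGP and none in ASP+CGP, so that most of this list was near the floor. Where only genes with a mean of at least 7 in a group were kept, 11 were called higher.

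Genes of other organs that are dim in the adrenal shared that direction. Their counts stand beside 8.57% of all genes that rose, and 5.17% after cyclic loess. The lists had median CGP signals of 6.55 (kidney and pancreas), 7.08 (muscle) and 6.67 (saliva and skin). Of all genes with a CGP signal from 6 to 7, 700 of 3145 rose (median 0.27), and from 7 to 8, 310 of 3149 (median -0.06). Of 15 kidney and pancreas markers 10 rose and none fell (median 0.51), and after cyclic loess 5 rose. Cpa1, a digestive protease of pancreas, was at least 1.68-fold higher and Umod, a urine protein of kidney, at least 1.59-fold, both having a CGP mean under the floor. Of 17 muscle markers 6 rose (median 0.40), led by Tnni2 at 0.85 and Trdn at 0.82, and 6 did after cyclic loess. Of 9 secreted proteins of saliva and skin 5 rose (median 0.52). Of 16 hypothalamic neuropeptides 6 rose (median 0.22), beside 8.57% of all genes. The median CGP signal of this list was 6.76. The list median was no higher than the 0.27 of genes with a CGP signal from 6 to 7. Its share of rises, 6 of 16, was above their 700 of 3145. After cyclic loess, without CGP replicate 2 or without ASP+CGP replicate 3, 3 of the neuropeptides rose. Oxt, the oxytocin precursor, was at 8.12, 7.88 and 8.21 in CGP and at 9.12, 8.66 and 8.93 in ASP+CGP. Hcrt, the orexin precursor, rose by 0.60 on the log2 scale, a call lost without CGP replicate 2.

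The direction went with the brightness of a gene. Among genes with a mean under 6 in CGP the median difference was 0.37 and among those from 6 to 7 it was 0.27. From 9 to 10 the median was -0.35, and at 12 or more it was -0.13. Grouping by the mean of the CON and ASP arrays, which do not enter the difference, gave medians of 0.36, 0.26, -0.35 and -0.09 in those ranges. Hepatocyte markers had larger falls than these medians. The 5 markers with a CON signal of 12 or more had a median of -1.23 and the 34 others of -2.31.

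**Figure D3:**
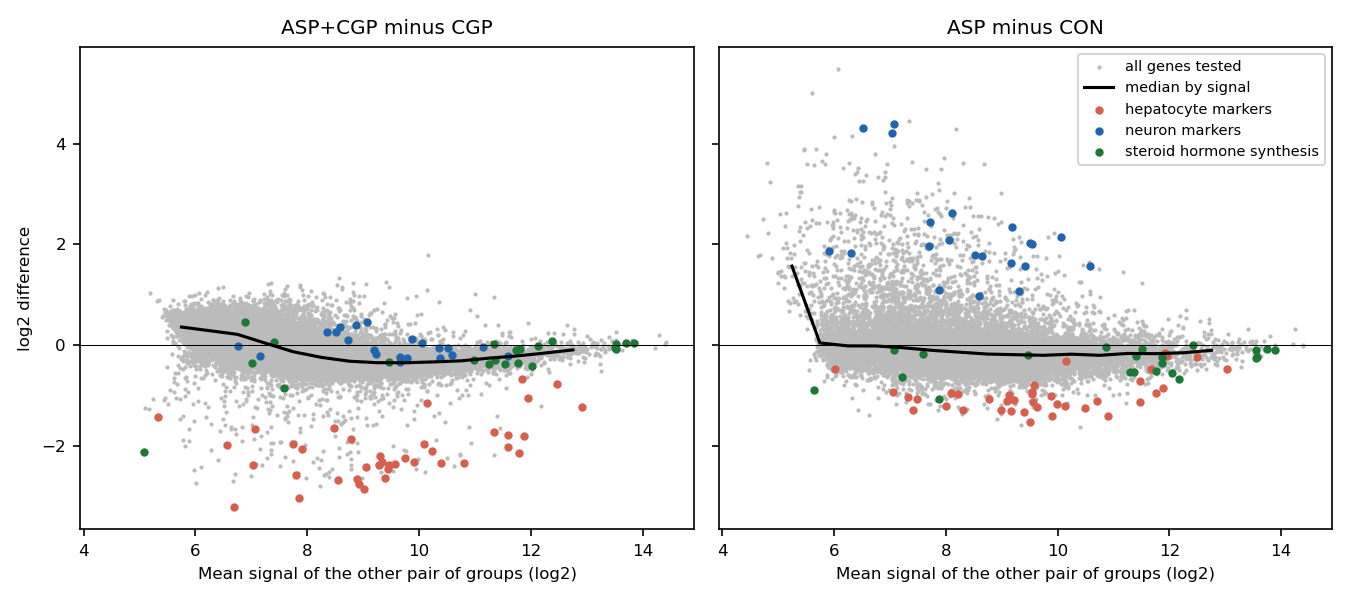
Log2 difference (vertical axis) of 15900 genes in ASP+CGP against CGP (left) and ASP against CON (right), plotted over the mean log2 signal of the 6 arrays that do not enter the difference; the black line is the median by signal. On the left the line is above 0 for dim genes and below 0 for bright ones, hepatocyte markers lie under it, and neuron markers, high on the right, lie near 0 on the left.

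The same comparison can be made between the pools that had no antagonist. ASP against CON shares no array with ASP+CGP against CGP, and 1559 genes rose (9.81%) and 1292 fell (8.13%). After cyclic loess 1939 (12.3%) rose and 481 (3.04%) fell. Of the 1743 genes lower in ASP+CGP than in CGP, 484 (27.8%) were also lower in ASP than in CON, which is 37.5% of the 1292. Of the 1363 higher genes, 122 (8.95%) were shared, which is 7.83% of the 1559. Only 4 genes rose here and fell in ASP against CON, and 53 fell here and rose there. Across 15900 genes the Pearson correlation of the 2 differences was 0.319, and across the 39 hepatocyte markers it was 0.808; genes are not independent, and all arrays were normalised together.

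The interaction subtracts the difference of ASP against CON from that of ASP+CGP against CGP. It called 1434 genes higher (9.02%) and 2472 lower (15.5%). After cyclic loess these were 729 (4.61%) and 2427 (15.3%). For the hepatocyte markers the median was -2.20 with the antagonist and -1.06 without it, and all 39 were lower in the interaction (37 after cyclic loess). Against CON, which both comparisons share, the same markers had medians of 0.77 in CGP and -1.45 in ASP+CGP. Cyp7a1 was at 7.17, 7.26 and 7.16 in CON and at 6.08, 6.21 and 6.25 in ASP, so its signals in order were ASP+CGP, ASP, CON and CGP, with no overlap of arrays between neighbours. All 79 genes that fell over 4-fold here were lower in the interaction, and 62 of them were on a liver list. The interaction contains the difference by which these 79 were chosen, so that this count was largely set by the choice.

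The immediate early genes had medians of -0.59 with the antagonist and -0.51 without it. In the interaction 5 of 42 were lower and 1 was higher, beside 15.5% and 9.02% of all genes, so neither share was above that of all genes. Atf3 differed by -1.09 with the antagonist and by -0.98 without it (interaction -0.11, limma adjusted p = 0.33). Fosb differed by -1.23 and -0.95 (interaction -0.28, limma adjusted p = 0.025, under the 1.4-fold minimum). Plk3 differed by -1.40 and -0.90 and was called (interaction -0.50, limma adjusted p = 0.00021).

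**Figure D4:**
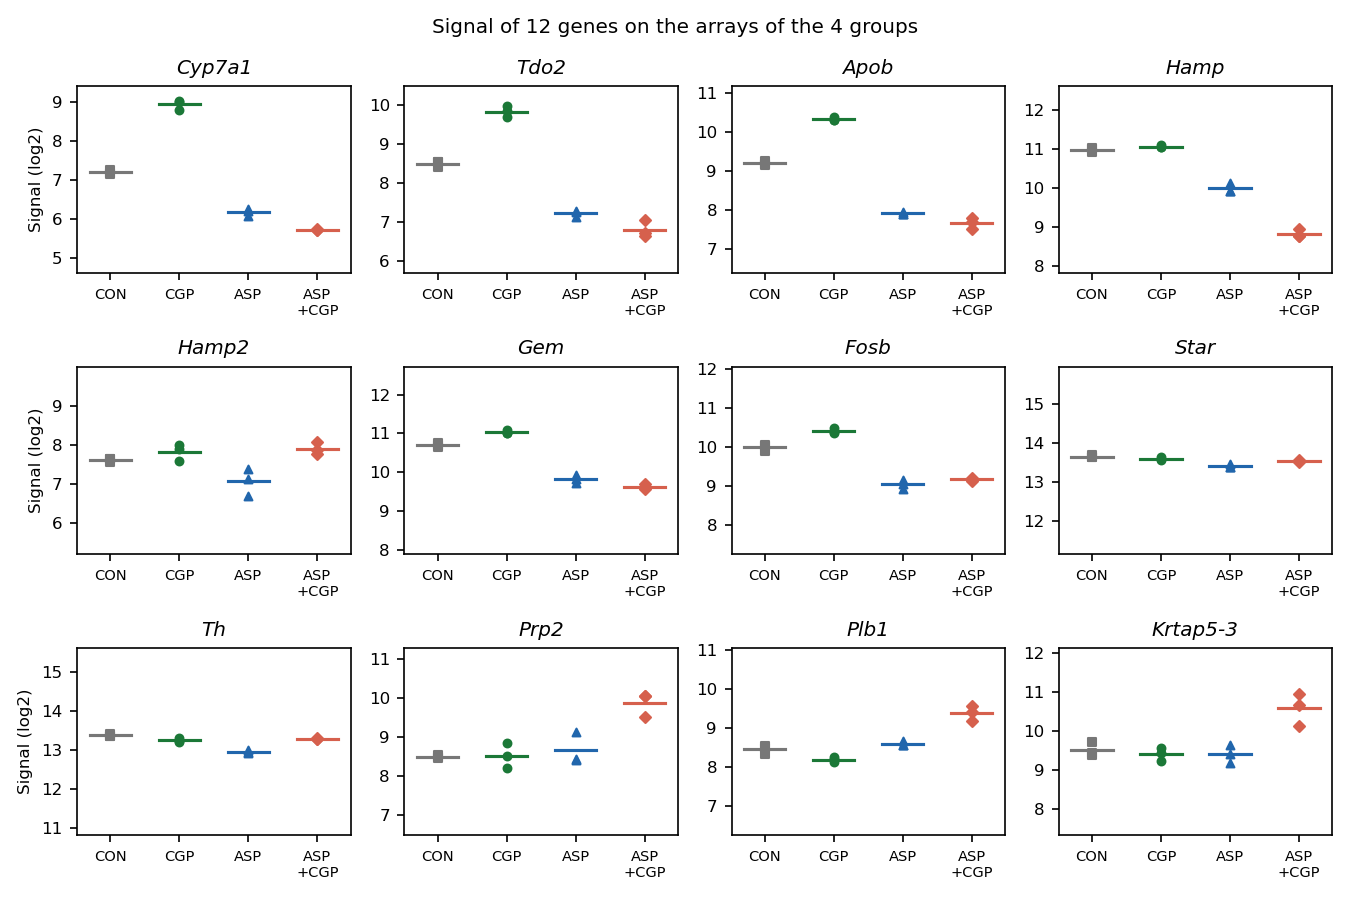
Log2 signal of 12 genes on the arrays of the 4 pools, from CON at the left to ASP+CGP at the right; points are arrays, bars are means of 3, and all panels span the same number of log2 units. Cyp7a1, Tdo2 and Apob are highest in CGP and lowest in ASP+CGP, Gem and Fosb are low in both aspartame pools, Hamp2 does not follow Hamp, and Prp2, Plb1 and Krtap5-3 are high in ASP+CGP only.

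Some genes went in opposite directions. Agt, the precursor of angiotensin, was at 10.06, 10.12 and 10.09 in CGP and at 8.43, 8.67 and 8.58 in ASP+CGP, and at 9.61, 9.55 and 9.61 in CON and 11.30, 11.35 and 11.38 in ASP. It was thus lower in ASP+CGP than in CGP (-1.53) and higher in ASP than in CON (1.75), and the interaction was -3.28 (limma adjusted p = 2.2e-12). Itih3, an inhibitor chain that binds hyaluronan, differed by -1.55 and 1.29 in the same order (interaction -2.84, limma adjusted p = 6.4e-11). Agt is a marker of astrocytes as well as a gene of liver, and 15 of 16 astrocyte markers were lower in the interaction. Cyp3a11, the main drug-inducible P450 of mouse liver, fell by 2.51 on the log2 scale after the antagonist and differed by 0.22 without it, where it was not called (interaction -2.74, limma adjusted p = 2.4e-08).

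Genes of the nervous system made up the lowest interaction values. All 21 neuron markers were lower in the interaction (1 of them was under the floor in both antagonist pools), with medians of -0.06 with the antagonist and 1.96 without it. None of the 21 was called by limma in ASP+CGP against CGP, although 5 were higher and 8 lower at an unadjusted p under 0.05, and after cyclic loess 2 were called higher. The log2 sum of their signals was 15.29 to 15.34 on the ASP arrays and between 13.13 and 13.30 on the others. Slc6a11, a GABA transporter of astrocytes, was at 5.80, 5.87 and 6.03 in CGP, under the floor on average, at 6.28, 6.28 and 6.21 in ASP+CGP, and at 11.55, 11.47 and 11.54 in ASP. Its interaction was -5.13 as fitted and -5.23 with the CGP mean set to the floor. Sst, somatostatin, differed by 0.29 and 4.45. Of 12 GABA-A receptor subunits 6 had a mean under the floor in both antagonist pools and were tested only through the other groups, so that no difference could be seen in them here. Of the 6 others Gabrd rose (0.66) and 4 were lower in the interaction. Of 15 ionotropic glutamate receptor subunits, the family that the antagonist acts on, Grin3b rose and Gria3 fell, neither after cyclic loess, and 12 were lower in the interaction.

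**Figure D5:**
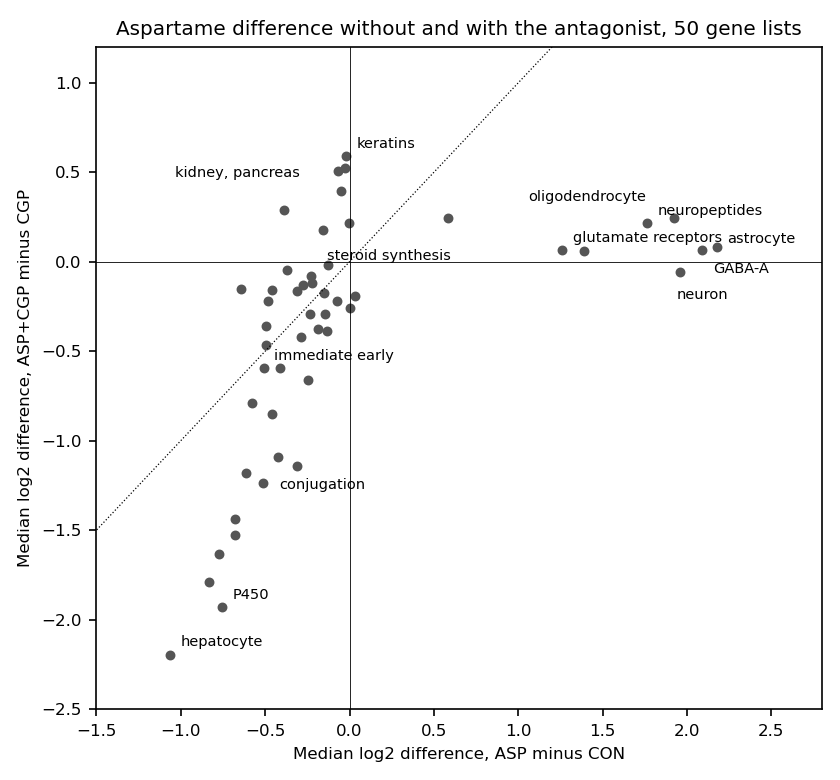
Median log2 difference of 50 gene lists in ASP+CGP against CGP (vertical axis) and in ASP against CON (horizontal axis); each point is 1 list and the dotted line marks equal values. Most liver lists lie below the line, lists of the nervous system lie far to the right near 0 on the vertical axis, and keratins and kidney and pancreas markers lie above 0 at a horizontal value near 0.

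In the interaction 3 of 22 genes of steroid synthesis were higher and 1 was lower, beside 9.02% and 15.5% of all genes, and 2 of 21 cortex and capsule genes were higher. Cyp11b2 was at 12.17, 12.27 and 12.12 in CGP and at 12.19, 12.20 and 12.14 in ASP+CGP, and at 12.44, 12.44 and 12.52 in CON and 11.76, 11.83 and 11.81 in ASP. It was lower in ASP than in CON (-0.67) and differed by -0.01 after the antagonist (interaction 0.66, limma adjusted p = 1.2e-05). In ASP against CON the steroid synthesis list had a median of -0.23, with 8 of 22 genes lower and none higher. The list of catecholamine synthesis and storage had a median of -0.37 there, with 4 of 14 lower and 1 higher. Beside these counts, 8.13% of all genes were lower in ASP than in CON. Th differed by -0.42 without the antagonist and by 0.04 with it (interaction 0.47, limma adjusted p = 0.00015), under the 1.4-fold minimum. Cyp17a1 fell in both settings, by 1.06 without the antagonist and by 0.86 with it on the log2 scale, and was not called in the interaction. Among genes called here, Msgn1, Svopl, Atg3, Mthfd1 and Ttc5 were those nearest to 0 in ASP against CON. Msgn1, a mesoderm factor of the embryo, rose by 0.72 on the log2 scale, and Mthfd1, an enzyme of folate metabolism, fell by 0.70 and lost its call after cyclic loess.

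Of 39 genes that the study names for its antagonist groups or measured by PCR, 27 fell and 6 rose. The list was chosen on these samples, so its direction is not independent evidence. Ppargc1a, a coactivator of energy metabolism, differed by -0.35, and Tmem38b, an ion channel subunit of the endoplasmic reticulum, by -0.38, and neither was called. The study names Tmem38b among the genes upregulated in ASP+CGP against control, whereas the comparison here is with CGP, on 1 probe set per gene. For Ppargc1a the probe set used here is not the one that the study lists with its PCR assay. Slc6a5, a glycine transporter, fell by 0.63 on the log2 scale, a call lost after cyclic loess. Adamts9, a secreted protease, fell by 0.99, less than in ASP against CON (-1.58), and its interaction of 0.59 was called.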

How the data were processed

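The authors deposited log2 values for the probe sets of Affymetrix Mouse Gene 1.0 ST arrays, made with RMA in Partek (background correction, quantile normalisation of all arrays, median polish). The processing notes in the labels give no version for these tools, and the methods of the study name one for Partek. Of 26533 probe sets, 17710 are listed with 1 gene; the one with the highest mean over 12 arrays stood for its gene (16244 genes), and 344 genes that reached a mean of 6 in no group were dropped. The deposited log2 values were fitted in R 4.3.3 with limma 3.58.1, a mean per group over all 12 arrays and empirical Bayes moderation, with Benjamini-Hochberg adjustment within a contrast. Genes were called at an adjusted p under 0.05 and 1.4-fold. Errors are standard errors of the fit. Where a mean lay under 6, the fold is a bound computed at 6, and fitted log2 differences of such genes are not exact. With 3 arrays per pool, the number of arrays limits the precision.

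Members and gene lists were chosen with earlier results of these data known. Named genes are the 12 largest rises and falls, for each list described its 4 members farthest from 0, 8 adrenal markers, Actb as a control, genes named by the study, the 5 highest and 5 lowest interactions and the 5 called genes nearest to 0 in ASP against CON. Predicted, clone-named and small RNA genes were left out. Other members, such as those set beside them as not called, and Itih3 and Hamp2 were chosen after their values were seen, as were the promoter motifs. Of the genes tested, 12504 matched a promoter of the RefSeq table by gene identifier. Scripts were tested on simulated data. Alternatives were other scalings (medians, cyclic loess, removal of the trend with signal), filters, moderation, array weights, a replicate block, fold minimums, adjustment, probe set choice and leaving out each array.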

Additional observations from a re-analysis of the deposited data

Results flagged for a closer look

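The aspartame difference with the antagonist differed from that without it, by the interaction term of the limma fit, in 2472 genes that were lower and 1434 that were higher. The lowest fitted values, on the log2 scale, were those of Slc6a11 (-5.13), Calb2 (-5.04, a calcium-binding protein of neurons), Gpm6a (-4.50, a membrane protein of neurons), Slc1a2 (-4.21, a glutamate transporter of astrocytes) and Sst (-4.15). The highest were those of Macrod2 (1.49), Pate11 (1.46), Ctrc (1.35, a protease of pancreas), Trav13-5 (1.30) and Mroh5 (1.29). For Slc6a11 the CGP mean, and for Calb2 the means of CGP, ASP+CGP and CON, were under the floor of 6, and with such means set to 6 the interactions were -5.23 and -4.34. Calb2 was tested only because its ASP signal was high.

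By list, the members lower in the interaction were 39 of 39 hepatocyte markers, 21 of 21 neuron markers, 13 of 14 central oligodendrocyte markers, 15 of 16 astrocyte markers and 10 of 12 GABA-A receptor subunits, beside 15.5% of all genes. Some members were under 6 in both antagonist pools and entered the test through the other groups. Without them the counts were 20 of 20 neuron, 10 of 11 oligodendrocyte and 14 of 15 astrocyte markers and 4 of 6 GABA-A receptor subunits, and a filter on the antagonist pools left 2349 lower genes in all. Members higher in it were 18 of 31 keratins and keratin-associated proteins and 9 of 15 kidney and pancreas markers, beside 9.02% of all genes. Cyclic loess left 37 of the hepatocyte markers, 10 of the keratins and 6 of the kidney and pancreas markers.

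The comparisons of genes above leave out the probe sets that have no gene or more than 1 gene in the annotation. Of 8278 such probe sets with a mean of at least 6 in a group, 1784 were higher and 972 lower in ASP+CGP than in CGP.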

How the results depend on the processing

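In ASP+CGP against CGP, 1363 genes were higher and 1743 lower. Cyclic loess gave 817 and 820, removal of the trend with signal 787 and 823, and centring on medians left 982 lower. A filter at a mean of 7 left 841 higher. A 1.8-fold minimum left 107 and 315, and no fold minimum 3783 and 8244. In the interaction, the higher genes were 729 after cyclic loess, 720 with the trend removed and 866 with the filter at 7. A 1.8-fold minimum left 127 higher and 1196 lower, and no fold minimum gave 3487 and 4688. In ASP against CON, the lower genes were 481 after cyclic loess and 486 with the trend removed. A 1.8-fold minimum left 937 higher and 139 lower, and no fold minimum gave 2801 and 5987. The cause of the scaling differences was not tested; the direction of a median near 0 depends on the scaling, and dim genes and genes with changes under 1.8-fold are the least firm. Leaving out each array in turn gave 1122 to 1750 higher and 1418 to 2363 lower genes in ASP+CGP against CGP, 1196 to 1732 and 2354 to 2703 in the interaction, and 1543 to 1595 and 1178 to 1463 in ASP against CON. Of 154 called genes named by rule, 99 were called the same way under every alternative that tested them, 33 lost the call after cyclic loess, and none reversed.

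Some genes that were not called lay near 0 and changed sign. Centring on medians gave 0.0085 for Star, 0.064 for Cyp11b2 and 0.053 for Dbh. Cyclic loess and removal of the trend gave 0.13 and 0.12 for Cyp11b2, 0.074 and 0.065 for Dbh, and -0.025 and -0.028 for Actb. Leaving out each array in turn gave -0.0031 to 0.053 for Cyp11a1, -0.045 to 0.029 for Cyp11b2, -0.046 to 0.0062 for Dbh and -0.0016 to 0.023 for Actb.

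Whether the replicate numbers pair the arrays is not settled by these values. The deviations of equally numbered CGP and ASP+CGP arrays correlated at 0.003, 0.37 and 0.15, the value for replicate 2 being the highest of all pairs. Those of unequally numbered arrays ran from -0.35 to 0.28. Replicate 2 also had the highest median and the widest interquartile range of signal in each group. With the number as a replicate block the counts of ASP+CGP against CGP stayed at 1363 and 1743 genes. No interaction value was made with only the arrays compared or with adjustment over 5 contrasts together.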
